A study of Mus musculus with 14 samples.

Results

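The genes of MHC class I peptide loading and of the immunoproteasome were followed in the livers of mice that received mesenchymal stem cells (MSCs) or vehicle. They were 10 genes of this machinery taken by their symbols, out of 19938 genes that had at least 1 probe set annotated to them alone. Each gene was read from the probe set that carried its symbol and no other, and where there were several, from the one with the highest mean over 14 arrays. All 10 were measured and none was removed by a filter.

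Both groups were male C57BL/6 mice aged 24 weeks that had eaten a high-fat diet for 20 weeks, so every comparison was made on the background of diet-fed liver, and no lean mice are among them. The 7 mice of the HFM group received human bone marrow MSCs, labelled with GFP and all from 1 donor, through the tail vein. The 7 mice of the HFS group received the same volume of the saline vehicle. Livers were taken 24 hours later and frozen, and RNA from each mouse was hybridised to its own Affymetrix Mouse Gene 1.0 ST array. Values are on the log2 scale, where a difference of 1 is a doubling, and all differences are HFM minus HFS.

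Class I molecules display short peptides from the cell interior to cytotoxic T cells. The peptides are cut by the proteasome, which under interferon exchanges its catalytic subunits for inducible ones, the immunoproteasome, and they are pumped into the endoplasmic reticulum by the TAP transporter, where a loading complex fits them onto a heavy chain paired with beta-2 microglobulin. Most of these genes are induced together by interferon-gamma, several through the transactivator NLRC5, and in liver they are expressed by hepatocytes as well as by Kupffer cells and sinusoidal endothelium.

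Tap1, Tapbp, Psmb8 and Psmb9 were the 4 members with higher levels in HFM at a limma p under 0.05 before adjustment, a chain of the transporter, the loading bridge and a pair of inducible catalytic subunits. No member was lower at that threshold. Over all 23410 probe sets tested, 3.57% were higher and 2.9% were lower at the same threshold. Tap1 alone passed the filter stated in the methods of the study, which asks for a 1.2-fold difference and a p under 0.01 before adjustment. The methods then name a Bonferroni correction, which is stricter than the adjustment used here and which Tap1 did not pass. In the higher direction 0.453% of all probe sets passed the filter of 1.2-fold and p under 0.01 before adjustment. No member passed an adjusted p of 0.05, and neither did any other probe set, so 0% were called. The adjusted p values of the members from limma ran from 0.714 to 0.971, and the smallest of any probe set was 0.305. Of the 10 members, 7 had a difference above 0, and their median difference was 0.10 on the log2 scale against 0.00 over all probe sets tested. Without HFM2, the HFM mouse with the highest average over these genes, the median log2 difference of the member genes was 0.05. The groups overlapped for every member.

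**Figure D1:**
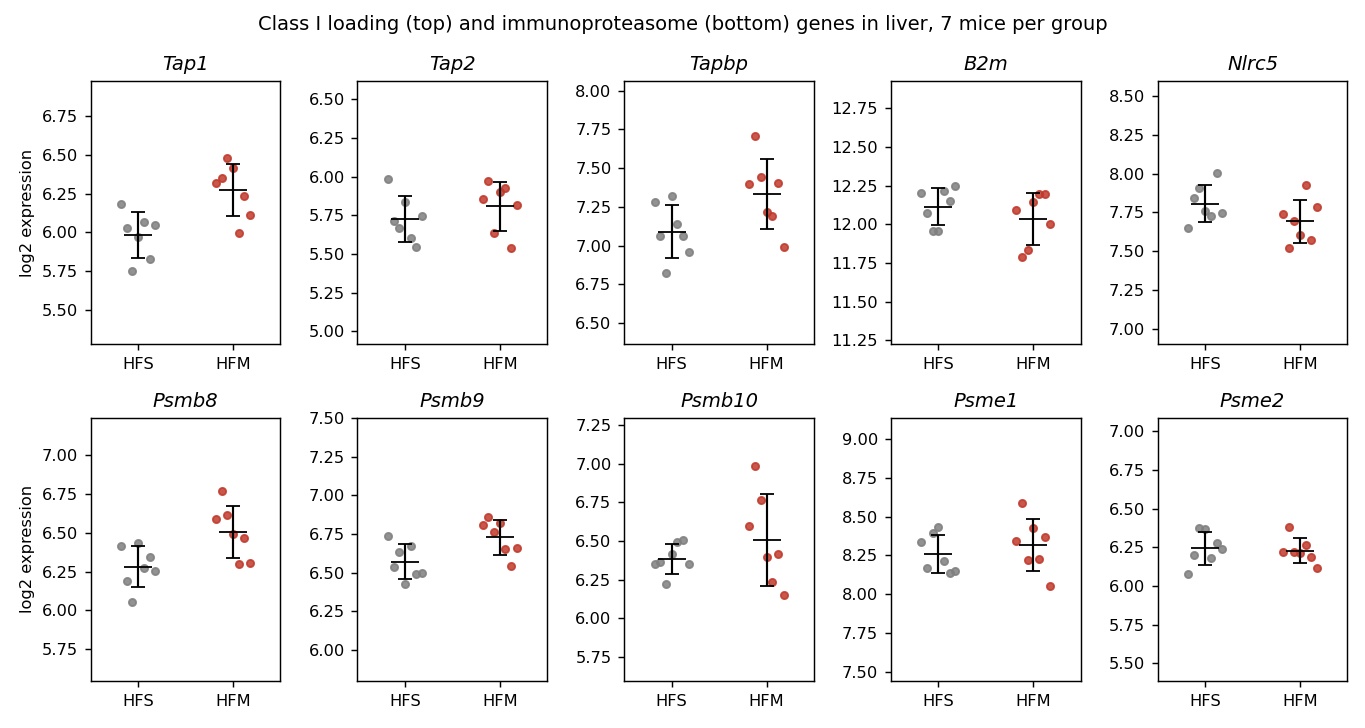
Log2 expression of the 10 genes in each mouse (points, 7 HFS in grey and 7 HFM in red), with the group mean (wide bar) and SD (whiskers); every panel spans the same log2 range around its own mean. Tap1, Tapbp, Psmb8 and Psmb9 sit higher in HFM with overlap between the groups, while B2m and Nlrc5 sit slightly lower and Psme2 level.

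Tap1 encodes 1 of the chains of the peptide transporter. Its log2 level was lowest at 6.00, at the median 6.32 and highest at 6.48 among HFM mice, against 5.75, 6.03 and 6.18 among HFS mice. In 5 of 7 HFM mice it lay above every HFS mouse, and HFM5 and HFM7 were the mice that did not. The group means were 6.27 ± 0.17 and 5.98 ± 0.15 (SD, n = 7 each), a difference of 0.29 (standard error 0.08, 95% interval 0.12 to 0.47) or 1.22-fold, with an adjusted p of 0.714 from limma and p = 0.0070 in the two-sided exact permutation test over all 3432 assignments of the mice. Tap1 is on a list that the study drew from these same livers, so its direction is not independent evidence. Its partner chain Tap2 differed by 0.08 (standard error 0.08, 95% interval -0.09 to 0.25), with levels of 5.54 to 5.97 in HFM and 5.54 to 5.98 in HFS and p = 0.341 in the exact test.

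Tapbp encodes tapasin, the bridge that holds an empty class I molecule at the transporter. Its levels were 6.99, 7.40 and 7.70 (lowest, median and highest) in HFM and 6.82, 7.06 and 7.32 in HFS. The upper end was set by HFM2, and HFM7 was lower than 5 of the HFS mice. The means were 7.33 ± 0.23 and 7.09 ± 0.17, a difference of 0.24 (standard error 0.10, 95% interval 0.04 to 0.45) or 1.18-fold, with an adjusted p of 0.768 from limma and an exact permutation p of 0.0431. Without HFM2 the difference was 0.18 and no longer passed an unadjusted p of 0.05, and without HFS3 it was 0.20 and did not pass either. A pair of probe sets shared by Tapbp and the ribosomal protein gene Rps3a1 differed by -0.05 and -0.03 and were kept apart, since they are annotated to both genes.

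B2m encodes beta-2 microglobulin, the light chain of every class I molecule. It was measured at 11.79 to 12.20 in HFM, with a median of 12.10, and at 11.95 to 12.25 in HFS, with a median of 12.15. The difference was -0.08 (standard error 0.08, 95% interval -0.24 to 0.09), with an exact permutation p of 0.337, and 3 of the HFM values exceeded the HFS mean. The interval for B2m ends at 0.09, so an increase of the size seen for Tap1 lies outside it.

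Psmb8 encodes the chymotrypsin-like subunit of the immunoproteasome. Its levels were 6.30, 6.49 and 6.77 (lowest, median and highest) in HFM and 6.06, 6.27 and 6.44 in HFS. All 7 HFM mice were above the HFS mean and 5 of them were above every HFS mouse. The means were 6.51 ± 0.17 and 6.28 ± 0.13, a difference of 0.22 (standard error 0.08, 95% interval 0.05 to 0.39) or 1.17-fold, with an adjusted p of 0.747 from limma and an exact permutation p of 0.0175.

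Psmb9 encodes the inducible subunit that takes the place of Psmb6. It ranged from 6.55 to 6.86 in HFM, with a median of 6.76, and from 6.43 to 6.74 in HFS, with a median of 6.54. In 4 of 7 HFM mice it lay above every HFS mouse. The means of 6.73 ± 0.11 and 6.57 ± 0.11 differed by 0.16 (standard error 0.07, 95% interval 0.02 to 0.30) or 1.12-fold, with an adjusted p of 0.768 from limma and an exact permutation p of 0.0256. This was the least stable of the 4 calls, as it was lost without any 1 of HFM1, HFM2, HFM4, HFS4, HFS6 and HFS7, with differences of 0.13 to 0.15, and under quantile normalization, with a difference of 0.12.

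Psmb10 encodes the remaining inducible catalytic subunit. HFM mice spread widely, from 6.15 to 6.98 with a median of 6.41, whereas HFS mice lay between 6.23 and 6.51 with a median of 6.36. The SD was 0.30 in HFM and 0.10 in HFS, and HFM1, HFM2 and HFM3 were the only mice above every HFS mouse. The difference of 0.12 (standard error 0.11, 95% interval -0.10 to 0.34) had an exact permutation p of 0.343. Without HFM2 it was 0.04.

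Psme1 and Psme2 encode the alternating subunits of the PA28 cap, which opens the proteasome without ubiquitin. Psme1 differed by 0.06 (standard error 0.08, 95% interval -0.11 to 0.22), with levels of 8.05 to 8.59 in HFM and 8.14 to 8.43 in HFS. Psme2 differed by -0.02 (standard error 0.06, 95% interval -0.15 to 0.11), with levels of 6.12 to 6.38 and 6.08 to 6.37. The exact permutation p values were 0.498 and 0.756. A near-identical copy of Psme2 lies elsewhere in the mouse genome, and the probe set annotated to both Psme2b and Psme2 differed by 0.16 (standard error 0.11, exact permutation p = 0.238).

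Nlrc5 encodes the transactivator of class I genes, and its sign depended on the probe set. The array carries 19 probe sets for Nlrc5 alone. The brightest, which the rule selects, ranged from 7.52 to 7.93 in HFM, with a median of 7.70, and from 7.65 to 8.004 in HFS, with a median of 7.76. It differed by -0.11 (standard error 0.07, 95% interval -0.27 to 0.04), with an exact permutation p of 0.129, and 1 of 7 HFM mice was above the HFS mean. Of the 18 other probe sets, 15 had a difference above 0. In all, 6 of 19 were higher and 0 were lower at an unadjusted p under 0.05, their median difference was 0.10, and 0 passed the filter of the methods.

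The next brightest probe set of Nlrc5 differed by 0.32, from 6.45 ± 0.17 in HFS to 6.78 ± 0.30 in HFM, and 6 of 7 HFM mice were above every HFS mouse (exact permutation p = 0.029). Averaged over its 19 probe sets, Nlrc5 had a log2 mean of 5.56 ± 0.05 in HFM and 5.46 ± 0.10 in HFS, a difference of 0.10 (standard error 0.06) with an adjusted p of 0.783 from limma. All 7 HFM mice exceeded the HFS mean of that average, 1 of them above every HFS mouse, and the exact permutation p was 0.0373. Probe sets of a gene share its RNA and its arrays and are not replicates. Nlrc5 too is on a list the study drew from these livers.

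**Figure D2:**
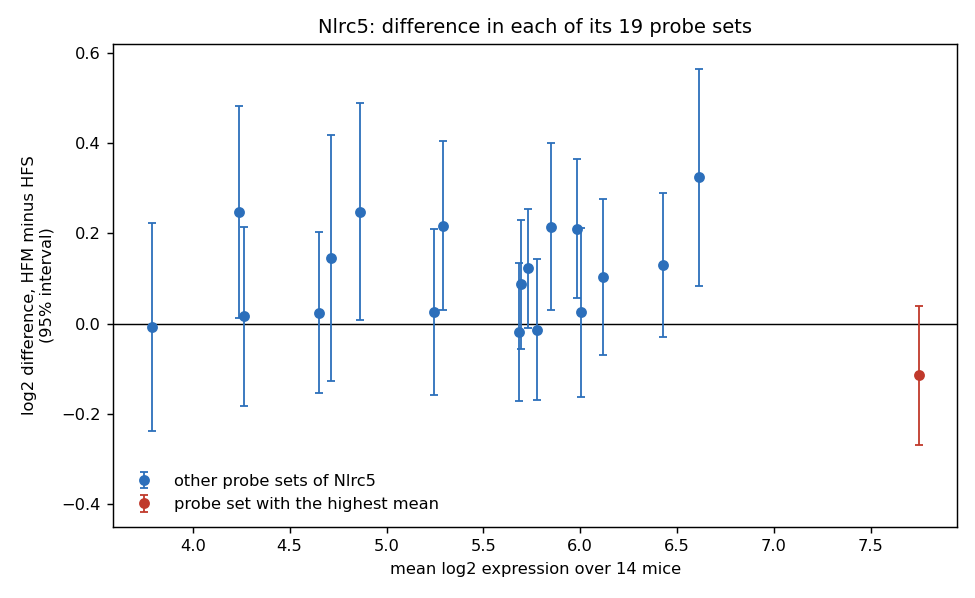
Difference between HFM and HFS (log2, points) with its 95% interval (bars) for each of the 19 probe sets annotated to Nlrc5 alone, against the mean log2 level of the probe set over 14 mice. The brightest, in red, lies at -0.11 and the other 18, in blue, include 15 above 0.

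The promoters of these genes are shown because Tap1 and Psmb9, a pair of the 4 higher genes, are read in opposite directions from 1 stretch of DNA. Promoter windows from RefSeq (GRCm38.p6) were listed for 8 of the 10 members, with Tap2 and Nlrc5 not listed, and Psme2 had windows at 2 starts. On chromosome 17, Psmb9 starts at 34187330 on the reverse strand and Tap1 at 34187556 on the forward strand, with 225 bases between them. Psmb8 and Tapbp, the other pair of higher genes, also start on chromosome 17. The chromosomes of Tap2 and Nlrc5 were not read, as these members had no window. Tap2 differed by 0.08 (exact permutation p = 0.341) and Nlrc5 by -0.11 at its brightest probe set. A shared chromosome is therefore not shown to set the 4 higher members apart. Whether genes of chromosome 17 were higher more often than others was not tested. Printed here are the stretch between Psmb9 and Tap1 (chr17:34187331-34187555), the bases before the start of Psmb8 (chr17:34197945-34198194), and, as a contrast that was not higher, those before the start of B2m (chr2:122147437-122147686), all on the forward strand. Capitals mark matches to 3 motifs, the interferon-stimulated response element (ISRE, GAAANNGAAA), the gamma-activated site (GAS, TTCNNNGAA) and the core of the cyclic AMP response element (CRE core, TGACG).
between Psmb9 and Tap1: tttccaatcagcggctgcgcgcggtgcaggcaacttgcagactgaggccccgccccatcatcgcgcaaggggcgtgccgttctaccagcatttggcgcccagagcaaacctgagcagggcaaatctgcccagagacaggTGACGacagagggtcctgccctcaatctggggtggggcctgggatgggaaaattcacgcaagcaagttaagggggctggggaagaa
Psmb8: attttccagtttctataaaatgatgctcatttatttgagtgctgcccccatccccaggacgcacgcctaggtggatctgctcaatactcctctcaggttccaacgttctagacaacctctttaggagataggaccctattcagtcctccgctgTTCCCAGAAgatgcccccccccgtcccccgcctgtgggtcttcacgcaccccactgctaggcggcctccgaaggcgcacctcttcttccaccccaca
B2m: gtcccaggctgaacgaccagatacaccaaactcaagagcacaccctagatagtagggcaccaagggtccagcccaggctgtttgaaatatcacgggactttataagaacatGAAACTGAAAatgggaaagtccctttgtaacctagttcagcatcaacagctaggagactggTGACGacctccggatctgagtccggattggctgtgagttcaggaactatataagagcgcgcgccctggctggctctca

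In these letters the Tap1 and Psmb9 stretch held 1 CRE core, whose leading base is at position -86 from the start of Tap1 and whose other end is at -144 from the start of Psmb9. The Psmb8 window held 1 GAS match beginning at position -97. The B2m window held an ISRE match beginning at position -139, with CRE cores at -78 and 45, and Psme1 held an ISRE match beginning at position 10. Motifs were searched on both strands, and over all 32851 windows of this length the ISRE was in 3.44%, the GAS in 8.30% and the CRE core in 20.8%. An NF-kB-like motif (GGGNNNNNCC), which can match both strands at once, was in 50.8% of all windows and in those of Tap1, Psmb9, B2m, Psme1 and Psme2. The windows of Tapbp and Psmb10 held none of the 4 motifs. A match is a match of letters, and binding was not measured.

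**Figure D3:**
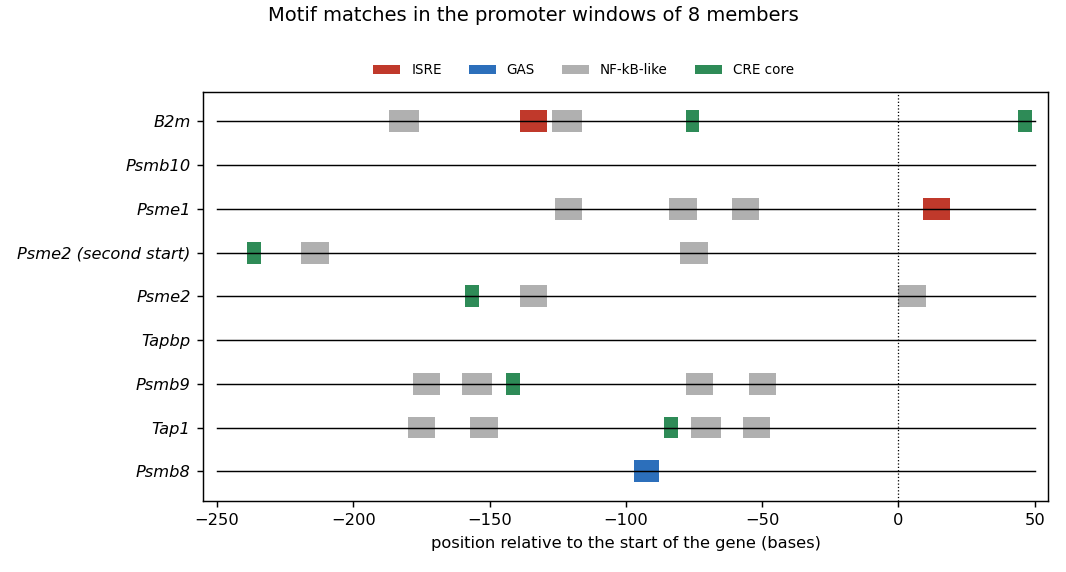
Matches to 4 motifs (coloured blocks, drawn to width) in the promoter windows of 8 members, 250 bases before to 50 bases after the start of each gene, which is the dotted line; Psme2 has 2 starts. Tap1 and Psmb9 show the same stretch read from opposite ends, Psmb8 has the GAS match, and B2m and Psme1 have the ISRE matches.

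The heavy chains, which hold the peptide, could be read only in part, because many probe sets match several H2 genes. Of 33 heavy chain genes listed, 20 had a probe set of their own, 13 of these with a mean below the median probe set. Among the 20, 2 were higher, 2 were lower and 16 were neither at an unadjusted p under 0.05, and the median difference was -0.03. H2-Q10, a secreted class I molecule made by hepatocytes, was 8.72 ± 0.29 in HFM and 8.38 ± 0.35 in HFS, a difference of 0.33 (standard error 0.14), with an exact permutation p of 0.071. H2-T24 differed by 0.16 (exact permutation p = 0.032), and H2-M9 and H2-M10.4, both below the median probe set, by -0.21 each. Under 24 alternatives of processing or of mice left out, H2-Q10 lost the threshold 10 times and H2-T24 6 times, and H2-M10.4 lost it 10 times under 23.

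The classical molecules H2-K1 and H2-D1 shared their probe sets with each other. The probe set listed for H2-K1, LOC547349 and H2-D1 was 9.32 ± 0.15 in HFM and 9.11 ± 0.23 in HFS, a difference of 0.21 (standard error 0.10, 95% interval 0.01 to 0.42), with all 7 HFM mice above the HFS mean, an adjusted p of 0.770 from limma and an exact permutation p of 0.072. The one listed for H2-D1, LOC547349 and H2-K1 was 8.87 ± 0.15 and 8.73 ± 0.17, a difference of 0.14 (standard error 0.08, exact permutation p = 0.118). Of 7 probe sets shared by H2 genes, 5 had a difference above 0, 1 was higher at an unadjusted p under 0.05 and 0 were lower, and their differences ran from -0.06 to 0.21.

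An immunoproteasome subunit and the constitutive subunit it replaces were compared within each mouse, as the difference of their log2 values, so that a shift of the whole array cancels. Psmb8 minus Psmb5 was lowest at -0.74, at the median -0.59 and highest at -0.23 in HFM, and -1.07, -0.66 and -0.59 in HFS. The group means were -0.57 ± 0.18 and -0.71 ± 0.17, and they differed by 0.14 (95% interval -0.06 to 0.34, exact permutation p = 0.185). HFM2 was the highest of all 14 mice and HFS3 the lowest.

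For Psmb9 minus Psmb6 the means were -1.89 ± 0.22 in HFM and -1.98 ± 0.26 in HFS, differing by 0.09 (95% interval -0.18 to 0.37, exact permutation p = 0.470). For Psmb10 minus Psmb7 they were -2.06 ± 0.35 and -2.24 ± 0.20, differing by 0.19 (95% interval -0.14 to 0.52, exact permutation p = 0.243). None of the 3 pairs passed 0.05 before any adjustment for the number compared, so unequal change of a subunit and its partner was not detectable in 7 against 7 mice. With 1 mouse left out, Psmb9 minus Psmb6 ran from 0.03, without HFS4, to 0.16, without HFM3. Without HFM5, the lowest HFM mouse of the last pair, Psmb10 minus Psmb7 differed by 0.29 (exact permutation p = 0.0449). The constitutive partners themselves differed by 0.08 for Psmb5, 0.06 for Psmb6 and -0.07 for Psmb7, and none passed an unadjusted p of 0.05.

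**Figure D4:**
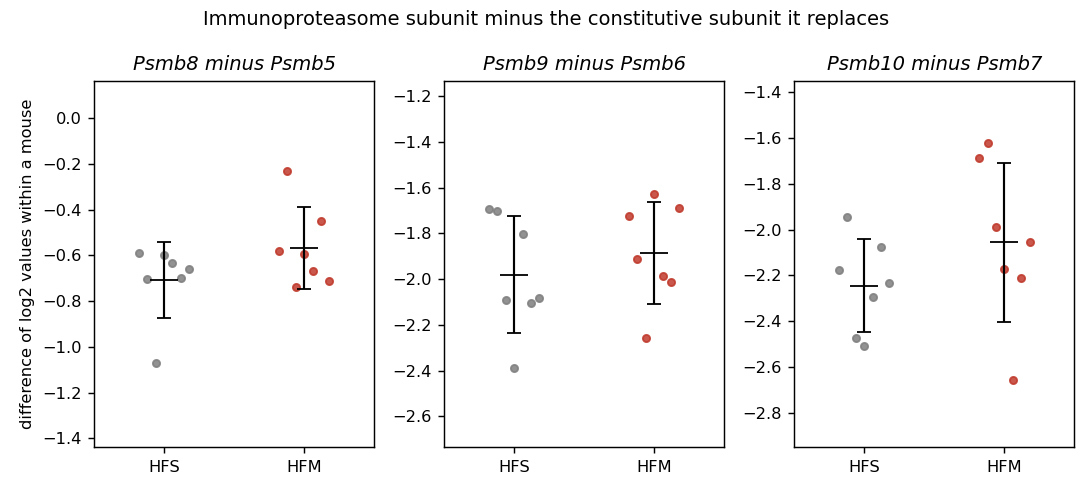
Log2 value of an inducible catalytic subunit minus that of the constitutive subunit it replaces, in each mouse (points, HFS in grey and HFM in red), with the group mean and SD. The groups overlap in all 3 pairs, and the axes cover different ranges.

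The rest of the proteasome gave small differences. None of the 14 genes of the standard 20S core passed an unadjusted p of 0.05 in either direction, their differences lay between -0.10 and 0.08, and their median was -0.02. Psma3, the brightest probe set of that list, differed by -0.04 (standard error 0.10). Of 23 measured genes for other caps and for assembly, 0 passed, the median was 0.02 and Psmd8, the brightest, differed by 0.13. Of 10 measured chaperones and peptidases that fold and trim for class I molecules, 0 passed as well, with a median of 0.03, and calreticulin (Calr), the brightest, differed by 0.08. The same held for 6 class I-like molecules, with a median of -0.03 and a difference of 0.00 for Azgp1. The cap gene Adrm1, the peptidase Lnpep and the class I-like Fcgrt had no probe set of their own.

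Genes that carry or follow the interferon signal were listed as well. Of 24 measured genes of interferon signalling and class I transcription, 1 was higher and 0 were lower at an unadjusted p under 0.05, with a median of 0.04. Irf2, a transcription factor that binds interferon response elements, was 7.49 ± 0.24 in HFM and 7.25 ± 0.13 in HFS, a difference of 0.23 (standard error 0.10) with an exact permutation p of 0.052. In 6 of 7 HFM mice Irf2 was above every HFS mouse, and HFM5 was below them all. Irf2 is on a list the study drew from these livers. Jak1, a kinase of the interferon receptors and the brightest of the list, differed by 0.07 (standard error 0.09).

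Of 11 measured GTPases and chemokines induced by interferon-gamma, 2 were higher and 0 were lower, and the median was 0.13. Cxcl9, a chemokine that draws activated T cells, ranged from 6.11 to 7.07 in HFM, with a median of 6.71, and from 5.46 to 6.65 in HFS, with a median of 5.94. It differed by 0.62 (standard error 0.17, exact permutation p = 0.010) and passed the filter of the methods. Gbp7, a guanylate-binding protein, differed by 0.25 (standard error 0.12, exact permutation p = 0.089) and lost the threshold under 13 of 24 alternatives, and Iigp1, the brightest of the list, by -0.03 (standard error 0.08). Gbp2, Gbp6, Igtp and Irgm2 had no probe set of their own.

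**Figure D5:**
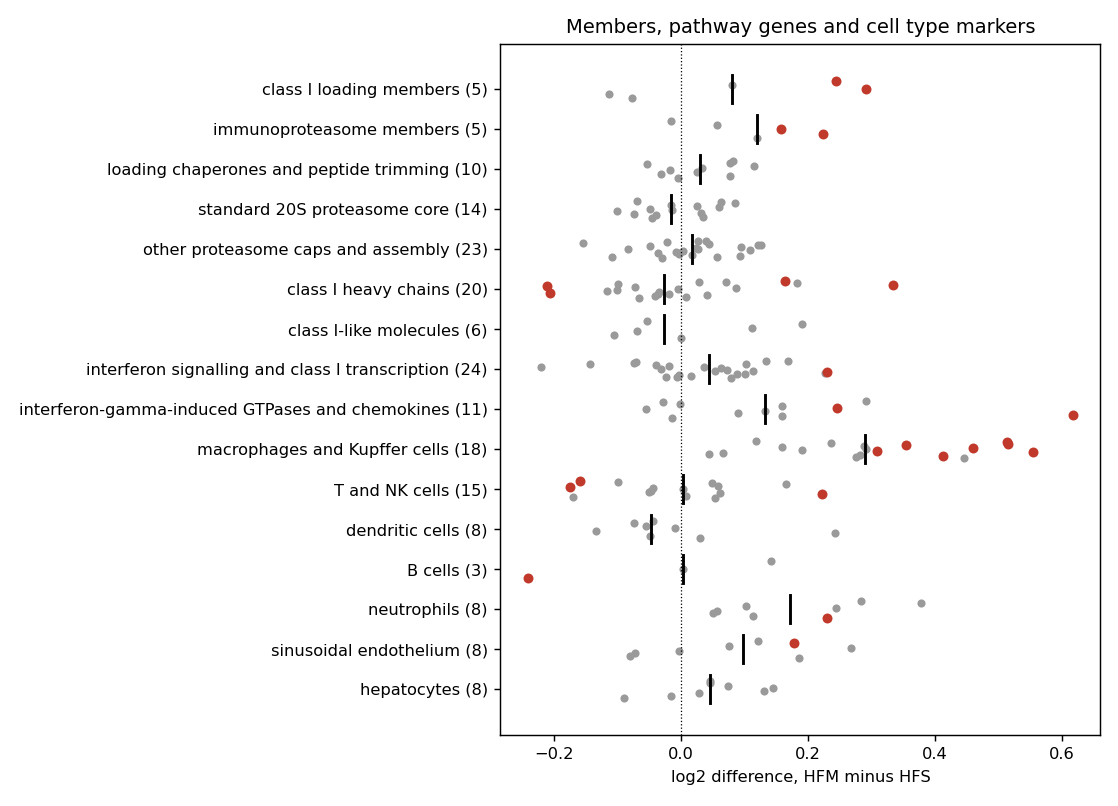
Log2 difference between HFM and HFS of every measured gene (points) in the class I loading and immunoproteasome genes, the pathway lists and the marker lists, with the number of genes in brackets, red for an unadjusted p under 0.05 from limma and a vertical bar at the median. The standard core of the proteasome lies between -0.10 and 0.08, and all 18 macrophage markers lie above 0.

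Markers of cell types in the tissue were compared between the groups in the same way. All 18 markers of macrophages and Kupffer cells were above 0, 7 were higher at an unadjusted p under 0.05 and 3 passed the filter of the methods, with a median difference of 0.29. Their summed level on the linear scale ran from 1701 to 3576 in HFM, with a median of 2180, and from 1513 to 2967 in HFS, with a median of 1614, and Cd163, Itgam and Cd14 were below the median probe set. Cd68, Cd5l, Marco, Tyrobp and Fcer1g, 5 of the 7 higher markers, and Adgre1 and C1qa are on lists the study drew from these livers, so their direction is not independent evidence. Tyrobp, a signalling adaptor of myeloid cells, differed by 0.51 (standard error 0.17, exact permutation p = 0.022), and Mpeg1, a pore-forming protein of macrophages, by 0.52 (standard error 0.17, exact permutation p = 0.030). In RNA of whole liver, a change in the number of cells of a type cannot be told apart from a change of RNA per cell. The part of macrophages in the differences of Tap1, Tapbp, Psmb8, Psmb9 and Cxcl9 was not tested.

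Mouse by mouse, the class I genes and the macrophage markers ran together only in part. Relative to their mean over 14 mice, the 10 members averaged highest in HFM2, at 0.20, which also had the highest macrophage markers, at 0.73. HFM6 and HFS5 had macrophage markers at 0.47 and 0.44 with members at 0.00 and -0.04. Tap1, Tapbp, Psmb8 and Psmb9 averaged 0.07 in HFM6 and -0.06 in HFS5. HFM3 was above the mean in both, with members at 0.07 and markers at 0.20. HFM7, HFS2, HFS3 and HFS7 were below it in both, with markers at -0.11, -0.28, -0.31 and -0.47. Their members were at -0.10, -0.08, -0.12 and -0.07. HFS1 and HFS6 differed in sign, with members at 0.03 and -0.06 and markers at -0.30 and 0.17. HFM5 and HFS4 had members at 0.00 and markers at -0.22 and -0.32. In HFM1 and HFM4 the markers were near their mean, at 0.03 and -0.02, and the members at 0.10 and 0.07. Tap1, Tapbp, Psmb8 and Psmb9 were all 4 above their own means in HFM1, HFM2, HFM3, HFM4 and HFS1. These 4 were picked as higher in HFM, so a lean toward HFM mice follows from the choice. Their averages in HFM6 and HFS5 carry the same limit. Without HFM2 the higher members numbered 2, Tap1 at 0.28 and Psmb8 at 0.18.

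Other markers were lower in signal. Of 15 measured markers of T and NK cells, 14 had a mean below the median probe set, 1 was higher and 2 were lower, and the median difference was 0.00, with summed levels of 179.7 to 216.3 in HFM and 192.6 to 208.0 in HFS. Cd3g, a chain of the T cell receptor complex, differed by 0.22, and Ifng, the gene of interferon-gamma itself, by -0.18, with both below the median probe set. None of 8 dendritic cell markers passed an unadjusted p of 0.05, 7 of them were below the median probe set, and Clec9a and Flt3 differed by 0.24 and -0.13. Of 3 measured B cell markers, all below the median probe set, Cd79a was lower, with a difference of -0.24, and Ms4a1 differed by 0.14.

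All 8 neutrophil markers were above 0, with 7 below the median probe set and a median of 0.17, Cxcr2 was higher by 0.23 and Elane differed by 0.11. Their summed level ran from 95.8 to 410 in HFM, with a median of 112, and from 94.7 to 175 in HFS, with a median of 105. S100a8 was above every HFS mouse in 1 HFM mouse, at 6.84 against an HFM median of 3.57. Of 8 markers of sinusoidal endothelium, 5 were above 0 and 3 below, with a list median of 0.10. Stab1 was higher by 0.18 and Lyve1 differed by 0.27, whereas Clec4g differed by -0.08. None of 8 measured hepatocyte markers passed an unadjusted p of 0.05 from limma, all 8 were above the median probe set, and Alb differed by -0.09 (exact permutation p = 0.008) and Fgb by 0.14. Under quantile normalization Alb differed by -0.01 (unadjusted p = 0.787 from limma). The part of these cells in the differences of the class I genes was not tested.

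Among the 10 members, 45 pairs were correlated over 14 mice after the group means were subtracted. The median Pearson r was 0.18 and 27 pairs were above 0. After Benjamini-Hochberg adjustment over the 45 pairs, 4 passed 0.05 in a permutation test within groups, 3 of them above 0. Tapbp and Psmb8 had r = 0.91 (permutation adjusted p = 0.0031) and Spearman rho = 0.89 (permutation adjusted p = 0.0072), and r = 0.86 without the 2 mice farthest from the median of Tapbp. Psmb8 and Psmb10 had r = 0.84 (permutation adjusted p = 0.0036) and rho = 0.79 (permutation adjusted p = 0.0400), and r = 0.79 without 2 mice.

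Tapbp and Psmb10 had r = 0.80 (permutation adjusted p = 0.0120), rho = 0.75 (permutation adjusted p = 0.0789) and r = 0.56 without 2 mice. Tap1 and Nlrc5, the latter by its brightest probe set, ran in opposite directions, with r = -0.77 (permutation adjusted p = 0.0330), rho = -0.70 (permutation adjusted p = 0.1316) and r = -0.63 without 2 mice. That r holds for this probe set alone. Between the groups it differed in the opposite direction to 15 of the 18 other Nlrc5 probe sets. Both values of a pair come from 1 array, so array-wide shifts enter every r.

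The genes whose pattern over the 14 mice was most like the mean of the 10 members, with group means subtracted and among 10900 probe sets brighter than the median one, were Morc3 (r = 0.88), Plod1 (r = 0.86), 1810058I24Rik (r = 0.86), Tcirg1 (r = 0.85) and Bzw2 (r = 0.85). These are the highest of many and are given as a description. Tcirg1, a subunit of the vacuolar proton pump, differed between the groups by 0.20, and the other 4 by -0.07 to 0.09.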

How the data were processed

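Liver RNA of 14 mice was measured on Affymetrix Mouse Gene 1.0 ST arrays, 1 mouse per array. The authors summarized each probe set and normalized between arrays in Affymetrix Expression Console, and deposited the result on a log2 scale. RMA is the method in the labels and PLIER in the paper. The annotation build was not given in the sources used here, nor were versions. The table holds 35556 probe sets, and the test covered the 23410 that carry a gene symbol (21789 carry 1 and 1621 carry several), leaving out 12146. Of those with 1 symbol, 21698 matched a RefSeq gene identifier, which changed 0 symbols. Array medians lay between 4.24 and 4.35, and the number of arrays limits the precision.

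Groups came from the labels. Differences were fitted with limma 3.58.1 in R 4.3.3 (lmFit and eBayes, no covariate, no filter on signal), with Benjamini-Hochberg adjustment over all 23410 probe sets. Single genes and subunit pairs were tested with two-sided exact permutation tests over 3432 assignments of the mice, whose smallest possible p is 0.000583. The correlation test used 100000 permutations within groups. Scripts were tested on simulated data. The mice are separate animals.

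The members and lists were chosen with earlier results of these data known. Besides the members, the genes named were, of each pathway list, those past an unadjusted p of 0.05 (at most the 4 with the smallest p) and the brightest, of each marker list the 2 with the smallest p, the constitutive partners, the shared H2 probe sets and the 5 genes most like the members. A gene listed as below the median probe set had a mean under 4.65. As alternatives, the fit was repeated with a replicate block, quantile normalization, array medians subtracted, brighter probe sets only, array weights, a trended and robust prior, an unmoderated test, all probe sets, those with 1 symbol only, probe sets averaged per gene, and each mouse left out. Promoter sequences are from RefSeq, GRCm38.p6.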

Additional observations from a re-analysis of the deposited data

Results flagged for a closer look

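Of 100 groups of 7 mice examined for a mouse far from the others, 2 held one, and chance alone marks about 1 in 20 groups. Irf2 was lowest in HFM5, at 6.96, with the next HFM mouse at 7.42. Psmb8 minus Psmb5 was lowest in HFS3, at -1.07, with the next HFS mouse at -0.70. Without HFS3 the difference of that pair between the groups was 0.08.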

How the results depend on the processing

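Over 24 alternatives for each of the 10 members, 240 values in all, 225 kept their direction and their side of an unadjusted p of 0.05, 9 lost the threshold (Psmb9 7 times and Tapbp 2 times), 1 gained it (Nlrc5, at -0.15 without HFM5) and 5 changed sign (Psme2 and Nlrc5). No member passed an adjusted p of 0.05 under any of them.

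The count of member genes higher at an unadjusted p under 0.05, 4 as reported, was 2 to 4 when 1 mouse was left out, with the 2 without HFM2, and 4 with the replicate block. Mouse numbers gave no sign of pairing the samples. The deviations of same-numbered mice correlated at -0.20 to 0.14, and 1 of 7 pairs was over 0.1. In all, 0 mice correlated best with their own number. Low correlations of this kind cannot exclude a pairing. The replicate block changed none of the calls on members. The count of member genes past the filter of the methods, 1 as reported, was 0 with quantile normalization and 0 to 2 when 1 mouse was left out, 0 without HFM3 or HFS3 and 2 without HFM7. When 1 mouse was left out, Psmb8 minus Psmb5 ran from 0.08 to 0.17, Psmb9 minus Psmb6 from 0.03 to 0.16 and Psmb10 minus Psmb7 from 0.12 to 0.29. The median log2 difference of the member genes was 0.05 without HFM2.

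Nlrc5 was 0.10 as the mean of all its probe sets. Psme2 was 0.0108 with array medians subtracted and -0.0443 to 0.00517 when 1 mouse was left out. Azgp1 was -0.0194 with quantile normalization and -0.0270 to 0.0274 when 1 mouse was left out. Psma3 ran from -0.107 to 0.0151 and Psmb6 from -0.00382 to 0.109 when 1 mouse was left out, with signs turned without HFM1 and HFM3. Among the calls on other named genes, Gbp7 was lost under 13 alternatives, H2-Q10 and H2-M10.4 under 10 each, Cd79a under 9, Irf2 and H2-T24 under 6 each, Cxcr2 under 4 and Stab1 under 1. The causes were not tested.

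With 7 mice per group, the 95% intervals of 6 of the 10 members include 0, and a p that misses the threshold does not show that a gene did not differ.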
